A study of Mus musculus with 6 samples.

Results

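The genes described here are Dkk3 and 7 other secreted antagonists of Wnt signalling, Dkk2, Sfrp1, Sfrp2, Sfrp4, Sfrp5, Frzb and Wif1. They were chosen by their read counts in knockout and vehicle muscle and by family, and were then taken by name from a table of 43346 genes, and all 8 passed the filter on low counts that left 15583 genes for testing. RNA was sequenced from the gastrocnemius, a calf muscle of mostly fast fibres, of 6-month-old male mice. All mice were Vdrfl/fl.actin iCre: both copies of the vitamin D receptor gene Vdr had exon 3 flanked by loxP sites, and a tamoxifen-inducible Cre recombinase was driven by the ACTA1 (skeletal actin) promoter. The knockout group was 3 mice given tamoxifen at 100 mg/kg for 5 days, and the vehicle group was 3 mice of the same genotype given 10% ethanol in corn oil, with 1 library per mouse. All mice ate a diet with vitamin D3 at 3.4 IU/g and 0.81% calcium, and muscle was taken once tests done 10 days after the last injection were complete. The promoter directs deletion to muscle fibres, so other cells of the muscle were not meant to lose the receptor. Tamoxifen, Cre activity and deletion came together in the knockout group and cannot be told apart, since tamoxifen-treated mice without Cre were not analysed here.

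Wnt proteins are secreted signals that bind frizzled receptors and the co-receptors Lrp5 and Lrp6, and in the canonical branch this stabilises beta-catenin, the product of Ctnnb1. The secreted frizzled-related proteins (the Sfrp genes and Frzb) and Wif1 bind Wnt proteins outside the cell, whereas dickkopf proteins such as Dkk2 bind the co-receptors. Dkk3 is the divergent dickkopf, and its part in Wnt signalling varies with the cell type. In mouse muscle Dkk3 has been reported to increase with age and to drive expression of the atrophy ubiquitin ligases Fbxo32 and Trim63 through Foxo3 and beta-catenin.

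Of the 8 genes, 5 had an entry in the RefSeq promoter table (build GRCm38.p6): Dkk2, Sfrp2, Sfrp5, Frzb and Wif1. The window of Dkk2 is shown because Dkk2 was the most abundant of the 8 per length in the knockout group. It lies at chr3:132085042-132085341 on the plus strand and runs from 250 bases before the start of the gene to 50 bases after it. Capitals mark the matches among the motifs searched.
Dkk2 promoter: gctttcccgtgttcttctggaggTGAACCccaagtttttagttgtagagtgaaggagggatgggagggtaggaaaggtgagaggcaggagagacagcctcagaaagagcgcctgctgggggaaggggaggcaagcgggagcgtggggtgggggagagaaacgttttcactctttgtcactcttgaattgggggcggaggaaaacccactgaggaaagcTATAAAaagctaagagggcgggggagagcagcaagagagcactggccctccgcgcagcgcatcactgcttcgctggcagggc
The first capitals are the nuclear receptor half-site GGTTCA on the minus strand, which reads TGAACC here, a motif that 10.4% of the 32851 promoter windows in the table hold on either strand. The second are the TATA box TATAAA, 32 bases before the gene's start, which 13.6% of windows hold. The other motifs searched, on both strands, were the half-site AGGTCA, its direct repeat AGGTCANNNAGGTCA, the vitamin D receptor type of repeat GGTTCANNNGGTTCA, and the TCF/LEF sites CTTTGAT and CTTTGAA. Of all windows, 16.3% hold AGGTCA, 0.00609% hold each of the repeats, 3.73% hold CTTTGAT and 5.14% hold CTTTGAA. None of these other motifs was in the Dkk2 window, and neither repeat nor TCF/LEF form was in the windows of Sfrp2, Sfrp5, Frzb or Wif1.

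The libraries held 30486874 to 39909535 counted reads. Vdr itself had 52, 27 and 40 reads in the knockout libraries and 46, 48 and 61 in the vehicle libraries, with a log2 fold change of -0.37 (SE 0.37; edgeR adjusted p = 0.848). A gene-level count does not separate the floxed exon, so this is only a partial check of the labels. Knockout replicate 2 stood apart from the other libraries: its 14 fast fibre genes summed to 118597 CPM, the read count scaled to library size, against 189218 to 264569 CPM in the other 5 libraries. Its 12 slow fibre genes summed to 47097 CPM, against 3596 to 17147 CPM in the others. Library sizes for CPM were scaled by the trimmed mean of M values (TMM).

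Dkk3 was the gene of the 8 with the largest difference between groups. The same counts chose the genes, so their differences are described without a test. Dkk3 (ENSMUSG00000030772) lies on the minus strand of mm10 chromosome 7 from 112116019 to 112159057. It had 172, 72 and 249 reads in the knockout libraries and 652, 974 and 1107 in the vehicle libraries. Scaled, these were 5.00, 2.08 and 6.65 CPM in knockout replicates 1 to 3, against 20.2, 26.7 and 28.9 CPM in vehicle replicates 1 to 3. Every knockout library was thus below every vehicle library, with knockout replicate 2 lowest of all and vehicle replicate 1 the lowest of the controls. The group means were 4.58 ± 2.31 CPM in knockout and 25.3 ± 4.52 CPM in vehicle libraries (SD, n = 3 each), a ratio of 0.181. The log2 fold change fitted by edgeR was -2.46 (SE 0.37), and it ran from -2.83 to -2.12 when each library was left out in turn. Without knockout replicate 2 it was -2.12.

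Dkk2, the other dickkopf gene with appreciable counts, did not separate the groups. It had 7.24, 30.7 and 26.7 CPM in knockout replicates 1 to 3, against 12.8, 5.02 and 7.07 CPM in vehicle replicates 1 to 3. Knockout replicates 2 and 3 were above all other libraries, while knockout replicate 1 lay among the vehicle libraries. The means were 21.5 ± 12.5 CPM in knockout and 8.30 ± 4.05 CPM in vehicle libraries (SD, n = 3 each); edgeR put the log2 fold change at 1.38 (SE 0.54). Of the other dickkopf genes, Dkk1, Dkk4 and the related Dkkl1 did not pass the filter, and none of the 3 exceeded 0.0522 CPM in any library, below the floor of 3 counts, which was 0.0783 CPM or more.

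Frzb, also called sFRP3, was the second of the 8 genes whose libraries did not overlap between groups. It had 8.64, 8.04 and 10.1 CPM in knockout libraries, against 6.41, 2.49 and 4.72 CPM in vehicle libraries. All knockout libraries were higher than all vehicle libraries, and the gap was smaller than the range within the vehicle group. Its estimate on the log2 scale was 0.98 (SE 0.32), with 0.67 to 1.30 when each library was left out. Frzb being higher and Dkk3 lower made 1 gene in each direction among the 8. Over all genes tested, 5.83% were higher and 6.48% lower with no overlap between groups. Estimates were above 0 for 6 of the 8 genes and below 0 for 2, with a median log2 fold change of 0.32, against 0.0211 over all genes tested, of which 52.9% had estimates above 0. The choice of members used this contrast, so nothing is read from these counts.

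Among the remaining frizzled-related genes, Sfrp4 shares a subfamily with Frzb. Sfrp4 had 1.80, 1.74 and 1.12 CPM in knockout libraries and 0.929, 1.34 and 0.835 CPM in vehicle libraries, so the groups overlapped by 1 library each. Its log2 fold change was 0.58 (SE 0.38), on 42 to 62 reads per knockout library and 30 to 49 per vehicle library. Sfrp1, Sfrp2 and Sfrp5 form the other subfamily. Sfrp1 averaged 2.54 ± 0.766 CPM in knockout and 2.43 ± 0.564 CPM in vehicle libraries (SD, n = 3 each), with an estimated log2 fold change of 0.0620 (SE 0.32). Sfrp5, which is also known as an adipokine, had 2.44, 4.89 and 1.60 CPM in knockout libraries and 2.88, 5.21 and 3.39 CPM in vehicle libraries. The groups overlapped for Sfrp5, and the log2 fold change was -0.36 (SE 0.42).

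Sfrp2 and Wif1 were close to the limit of detection. Sfrp2 had 22, 2 and 12 reads in knockout libraries and 8, 11 and 17 in vehicle libraries, with a log2 fold change of 0.0288 (SE 0.76). The Sfrp2 estimate was -0.79 without knockout replicate 1. An antisense gene, Gm26771, overlaps Sfrp2 and was listed at 0 in every library. Wif1 had 5, 10 and 27 reads in knockout libraries and 5, 2 and 19 in vehicle libraries, with a log2 fold change of 0.70 (SE 0.85). Leaving out knockout replicate 3 put Wif1 at -0.13, and leaving out vehicle replicate 3 put it at 1.87. The library left out was in each case the highest of its group for Wif1. With all libraries, neither estimate exceeded its SE, and no difference was tested for either gene.

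**Figure D1:**
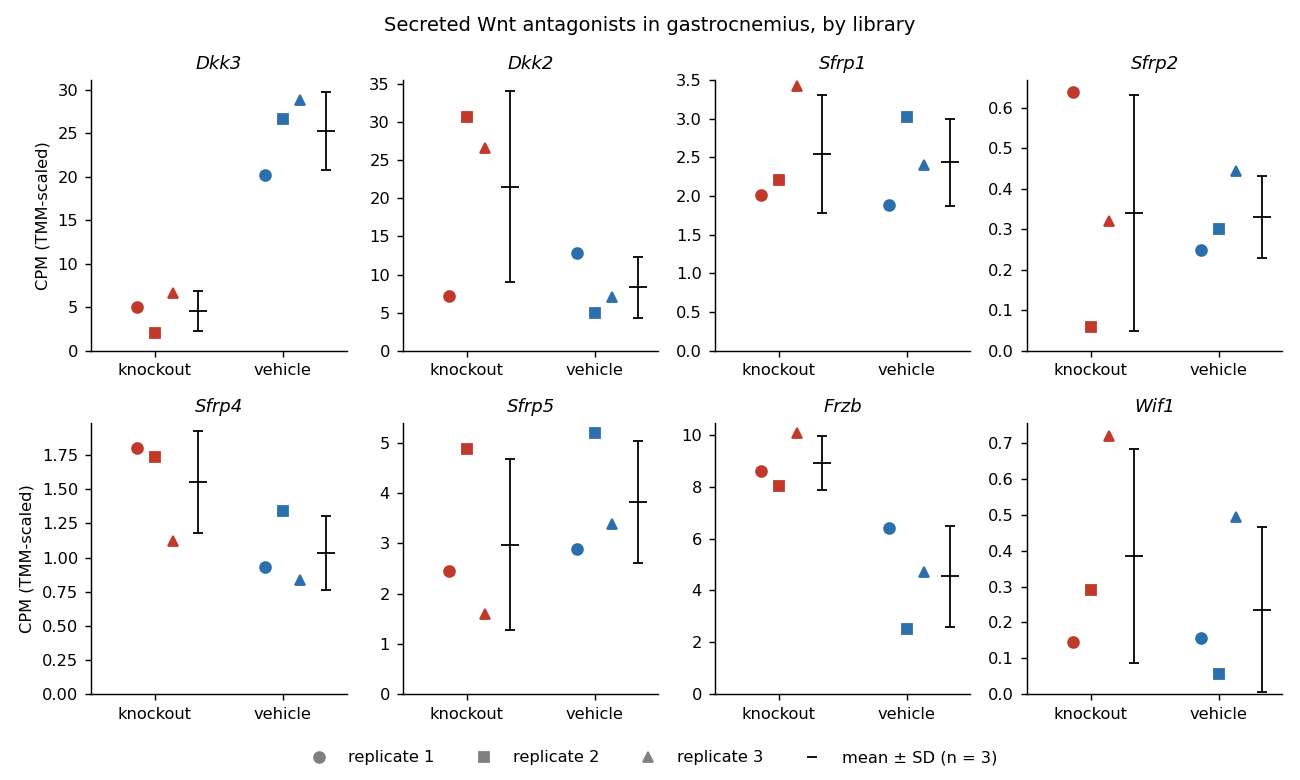
Abundance of the 8 secreted Wnt antagonists in CPM (vertical axis, linear) in each knockout (red) and vehicle (blue) library; marker shapes give the replicate number, which only names a library, and black bars give the mean ± SD (n = 3). The groups are apart for Dkk3 (2.08 to 6.65 CPM in knockout, 20.2 to 28.9 CPM in vehicle) and Frzb (8.04 to 10.1 CPM in knockout, 2.49 to 6.41 CPM in vehicle) and overlap for the other 6 genes.

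**Figure D2:**
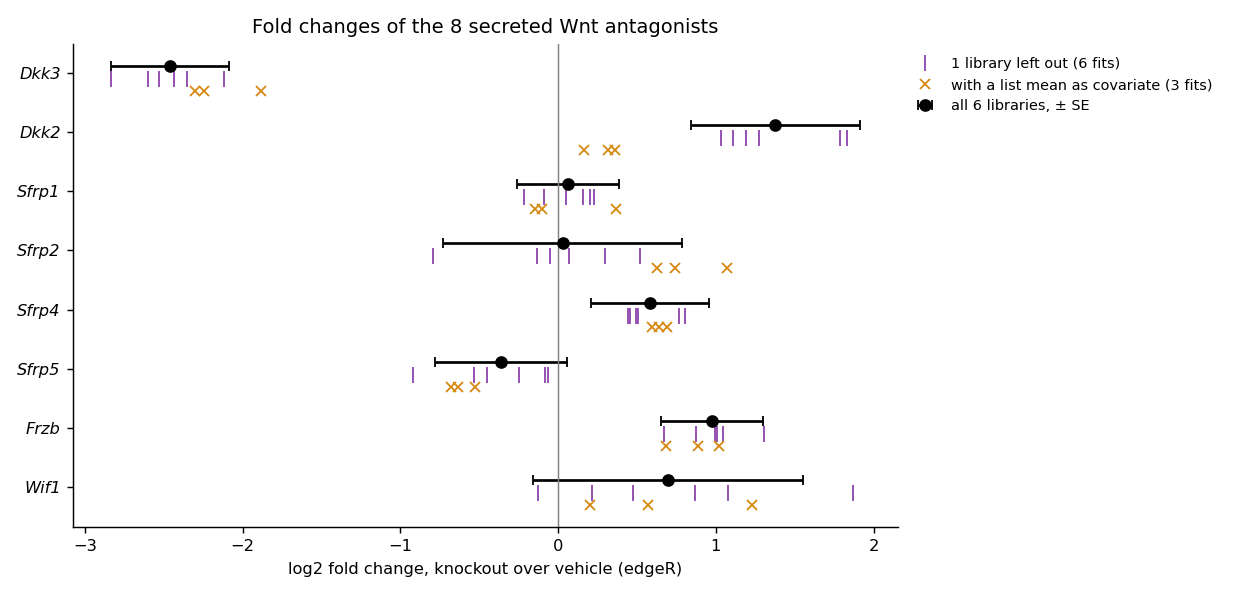
Log2 fold change of knockout over vehicle for each gene: black points with bars are the edgeR estimate ± SE from 6 libraries, purple ticks the 6 fits that each leave out a library, and orange crosses the 3 fits with a list mean as covariate. All Dkk3 estimates lie between -2.83 and -1.88 and all Frzb estimates between 0.67 and 1.30, while those of Sfrp1, Sfrp2 and Wif1 fall on both sides of 0.

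Per length of transcript, as FPKM in the deposited table, the order of the 8 genes differed between groups. In knockout libraries Dkk2 was highest at 6.29 FPKM, with libraries from 1.79 to 9.42 FPKM, then Frzb at 2.86 ± 0.444, Sfrp5 at 1.66 ± 1.10 and Dkk3 at 1.39 ± 0.702 FPKM (SD, n = 3). In vehicle libraries Dkk3 was highest at 7.28 ± 1.31 FPKM, then Dkk2 at 2.17 ± 1.05, Sfrp5 at 1.95 ± 0.647 and Frzb at 1.35 ± 0.577 FPKM (SD, n = 3). In the vehicle group Dkk3 stood clear of the next gene, with its lowest library at 5.79 FPKM and the highest Dkk2 library at 3.34 FPKM. Dkk2, Sfrp5 and Frzb overlapped there, and Frzb was above Sfrp4 by a narrow margin, 0.755 FPKM at its lowest against 0.749 FPKM at the highest of Sfrp4. In the knockout group each neighbour in the order from Dkk2 down to Sfrp1 overlapped with the next. Sfrp4 and Sfrp1 came after these 4 genes in both groups, and Sfrp2 and Wif1 were under 0.32 FPKM in every library.

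Dkk3 made up 16.1%, 3.97% and 13.2% of the summed FPKM of the 8 genes in knockout replicates 1 to 3, against 42.6%, 55.1% and 56.6% in vehicle replicates 1 to 3. The ratio of Dkk3 to Dkk2 in FPKM was 0.760, 0.0747 and 0.275 in knockout libraries and 1.73, 5.86 and 4.49 in vehicle libraries, so Dkk2 was the more abundant of this pair in each knockout library and Dkk3 in each vehicle library. The summed FPKM of the 8 genes was 8.43, 17.7 and 16.0 in knockout libraries and 13.6, 14.1 and 14.6 in vehicle libraries. This sum did not separate the groups.

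Fibre type and cell type markers varied between the libraries along with some of these genes. In a bulk sample, fewer cells of a type and less RNA per cell cannot be told apart. The mean of the 12 slow fibre genes, in log2 CPM centred on the 6 libraries, was 0.0687, 2.34 and 0.75 in knockout replicates 1 to 3, against 0.75, -1.85 and -2.06 in vehicle replicates 1 to 3. All 12 genes had estimates above 0, and their summed level was 11649 to 47097 CPM in knockout and 3596 to 17118 CPM in vehicle libraries. Dkk3 was lowest where this list was highest, in knockout replicate 2, and highest where it was lowest, in vehicle replicate 3. Knockout replicate 3 and vehicle replicate 1 had the same slow fibre mean to 2 decimals, and there Dkk3 was at 6.65 CPM and 20.2 CPM. The same pair differed in the mean of macrophage markers, at 1.07 and -0.0529. Whether fibre content accounts for the Dkk3 difference was not tested. With the slow fibre mean as a covariate, a fit chosen after seeing the data, the log2 fold change of Dkk3 was -1.88 (SE 0.35) and that of Frzb 0.68 (SE 0.40).

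The libraries highest in Dkk2, knockout replicates 2 and 3, were also the highest in macrophage and fibro-adipogenic progenitor markers. Fibro-adipogenic progenitors are the connective tissue cells of muscle. Macrophage markers had a centred mean of -0.69, 1.01 and 1.07 in knockout replicates 1 to 3, against -0.0529, -0.38 and -0.96 in vehicle replicates 1 to 3. The 10 of 11 listed macrophage markers found in the table summed to 49.3 to 155 CPM in knockout and 39.4 to 70.8 CPM in vehicle libraries, and none was at 0 throughout. All 9 that were tested had estimates above 0. The 15 fibro-adipogenic markers, of which 13 had estimates above 0, summed to 1445, 3219 and 2400 CPM in knockout replicates 1 to 3 and to 1922, 1963 and 1487 CPM in vehicle replicates 1 to 3, again highest in knockout replicates 2 and 3. The log2 fold change of Dkk2 was 0.17 (SE 0.36) with the macrophage mean as a covariate, 0.36 (SE 0.43) with the fibro-adipogenic mean and 0.32 (SE 0.54) with the slow fibre mean. For Dkk3 the values with the macrophage and fibro-adipogenic means were -2.30 (SE 0.50) and -2.25 (SE 0.45). These covariates differ between the groups themselves, and whether the cell content accounts for any of these differences was not tested. Of 11 lists, for fibre types, cell types and denervation-responsive genes, 1 had summed CPM without overlap between groups, the adipocyte markers. These summed to 1168 to 1603 CPM in knockout and 845 to 1042 CPM in vehicle libraries. Their centred mean did overlap, at -0.393 in knockout replicate 3 and -0.0886 in vehicle replicate 1. By centred mean, the denervation-responsive genes were lower in every knockout library, at -0.54 to 0.0352 against 0.117 to 0.338 in vehicle libraries. Schwann cell markers were lower by a narrow margin, with the highest knockout library at -0.0370 and the lowest vehicle library at -0.0323. The summed CPM of both lists overlapped.

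**Figure D3:**
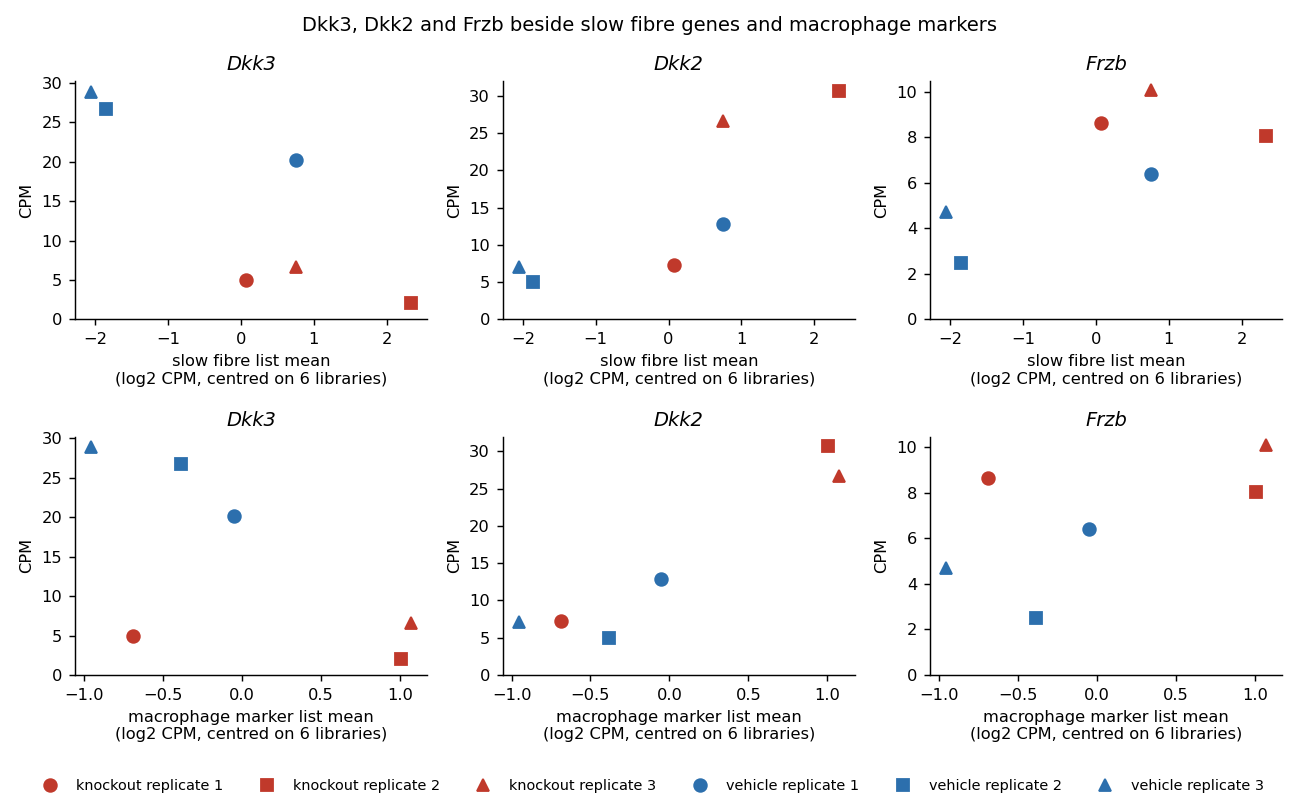
CPM of Dkk3, Dkk2 and Frzb (vertical axes) beside the mean of slow fibre genes (upper row) and of macrophage markers (lower row), both in log2 CPM centred on the 6 libraries; each point is 1 library, red for knockout and blue for vehicle. Knockout replicate 3 and vehicle replicate 1 share a slow fibre mean of 0.75, differ in macrophage mean (1.07 and -0.0529) and lie at 6.65 and 20.2 CPM for Dkk3. The libraries highest in macrophage markers, knockout replicates 2 and 3, are those highest in Dkk2.

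The profile of Dkk3 over the 6 libraries was compared with those of 11550 tested genes of at least 1 CPM on average. The members and gene models without a proper gene name were left out. The measure was the root mean square (RMS) difference between log2 CPM profiles centred on their own mean. The 6 nearest genes were at RMS differences of 0.36 to 0.51, against a median of 1.41 over all genes compared. Since Dkk3 separates the groups, genes near it do so by construction, and their fold changes are given without a test. Nearest was Otub2, a deubiquitinase, at 8.94 ± 4.67 CPM in knockout and 36.2 ± 12.1 CPM in vehicle libraries (SD, n = 3 each). The cadherin gene Cdh4 averaged 5.51 ± 3.09 CPM in knockout and 18.8 ± 4.61 CPM in vehicle libraries (SD, n = 3 each). Tekt1, of the axoneme, had 1.54 ± 0.280 and Rasd2, a small GTPase, 15.2 ± 7.91 CPM in knockout libraries, against 8.02 ± 2.14 and 64.3 ± 25.1 CPM in vehicle libraries (SD, n = 3 each). Icam4, an adhesion molecule gene, and Mss51, which encodes a mitochondrial protein of skeletal muscle, had log2 fold changes of -2.08 and -1.61. In all 6 genes, as in Dkk3, knockout replicate 2 was the lowest library.

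Genes beside Dkk3 on chromosome 7 had smaller estimates in size. Within 500 kb of Dkk3, 5 other genes were tested, with log2 fold changes from -0.63 for Mical2 to 1.19 for 2310014F06Rik. Usp47, a highly expressed deubiquitinase gene in this window, averaged 387 ± 71.0 CPM in knockout and 417 ± 18.0 CPM in vehicle libraries (SD, n = 3 each). Of the 5, 2310014F06Rik alone did not overlap between groups and was higher in knockout, at 1.13 ± 0.210 against 0.494 ± 0.0469 CPM in vehicle libraries (SD, n = 3 each).

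The rest of the Wnt pathway was examined in lists of antagonists, agonists, ligands, secretion factors, receptors, intracellular components, targets and Dkk3-linked atrophy genes, 93 genes in the table of which 65 were tested. None of the 65 passed the threshold in edgeR (adjusted p below 0.05), and 0% of all genes tested did. The smallest adjusted p among them was 0.526. An unadjusted p below 0.05 was reached by 7, 3 higher and 4 lower, or 10.8%, against 7.44% of all genes tested. Of these 7, 2 came from the list of Dkk3-linked atrophy genes, Fbxo32 and Trim63, both lower. Groups did not overlap in 8 of them, or 12.3%, the same share as over all genes tested (12.3%), 7 higher and 1 lower. DESeq2 called 1 of the 65, Myc, where it called 0.699% of all genes.

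Of the 19 Wnt ligand genes 9 were tested, with 4 estimates above 0 and a median log2 fold change of -0.0150. Wnt4 had 17.2, 7.55 and 14.5 CPM in knockout libraries and 16.0, 26.0 and 38.1 CPM in vehicle libraries, with an estimated log2 fold change of -1.03 (SE 0.37; edgeR adjusted p = 0.64) that was -0.12 with the slow fibre covariate. Wnt5a, a ligand of the non-canonical branch, had 2.73, 4.08 and 3.58 CPM in knockout libraries and 1.70, 2.55 and 1.98 CPM in vehicle libraries. The Wnt5a groups did not overlap, and the log2 fold change was 0.74 (SE 0.29; edgeR adjusted p = 0.645). Wnt16 was at 0.661 ± 0.494 CPM in knockout and 0.281 ± 0.150 CPM in vehicle libraries (SD, n = 3 each). Its log2 fold change was 1.23 (SE 0.72), and 0.47 without knockout replicate 3. The genes for ligand secretion, Wls and Porcn, had log2 fold changes of -0.15 (SE 0.16) and -0.00936 (SE 0.25).

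Of the 10 frizzled receptor genes 9 were tested, 7 with estimates above 0 and a median of 0.63. The 10 genes summed to 96.6 to 114 CPM in knockout and 52.0 to 83.2 CPM in vehicle libraries, without overlap. The centred mean of the 9 tested genes did overlap, at -0.0666 in knockout replicate 1 and 0.115 in vehicle replicate 1. Fzd4, which serves as a receptor for Wnt proteins and for norrin, had the second smallest p of the 65 pathway genes. It was at 58.2, 38.7 and 48.0 CPM in knockout libraries and 30.0, 28.1 and 16.0 CPM in vehicle libraries. The Fzd4 groups did not overlap, and the log2 fold change was 0.97 (SE 0.26; edgeR adjusted p = 0.526), with 0.73 to 1.13 when each library was left out. Fzd9 and Fzd1 had log2 fold changes of 0.95 (SE 0.49) and 0.95 (SE 0.45), and knockout replicate 2 was the highest library for both. Without that library Fzd9 was at 0.35 and Fzd1 at 0.60, and leaving out each library gave 0.35 to 1.48 for Fzd9 and 0.60 to 1.32 for Fzd1. With the slow fibre mean as a covariate Fzd9 was at -0.26, and with the macrophage mean Fzd1 was at -0.0909, both chosen after seeing the data. Fzd7 and Fzd8 were the 2 with estimates below 0.

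The co-receptors bear on dickkopf function, since Dkk2 binds Lrp5 and Lrp6. Kremen1 was in the same list. Lrp5 averaged 19.6 ± 2.93 CPM in knockout and 15.4 ± 3.65 CPM in vehicle libraries (SD, n = 3 each), with an estimated log2 fold change of 0.35 (SE 0.21). Kremen1 averaged 84.5 ± 20.6 CPM in knockout and 59.5 ± 26.6 CPM in vehicle libraries (SD, n = 3 each), with an estimated log2 fold change of 0.51 (SE 0.31) that was -0.17 with the slow fibre mean as a covariate. Ptk7, a co-receptor of the planar polarity branch, did not overlap between groups at 0.814 ± 0.299 and 0.470 ± 0.103 CPM in knockout and vehicle libraries (SD, n = 3 each). Of the 8 co-receptor genes tested 6 had estimates above 0.

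Among the agonists, Rspo3, an R-spondin that raises receptor levels at the cell surface, varied most. It was at 1.57, 6.31 and 2.64 CPM in knockout libraries and 1.67, 0.274 and 0.235 CPM in vehicle libraries. Vehicle replicate 1 lay above knockout replicate 1, and the log2 fold change was 2.29 (SE 0.81; edgeR adjusted p = 0.64). Without vehicle replicate 1 the estimate was 3.76, and without knockout replicate 2 it was 1.55, both in fits of 5 libraries. With the slow fibre mean as a covariate, chosen after seeing the data, it was 0.63 (SE 0.39). The R-spondin receptor gene Lgr4 averaged 29.5 ± 3.11 CPM in knockout and 23.7 ± 3.66 CPM in vehicle libraries (SD, n = 3 each), and Lgr6 averaged 0.573 ± 0.248 CPM in knockout and 0.502 ± 0.244 CPM in vehicle libraries (SD, n = 3 each). The 8 agonist genes summed to 33.1 to 34.4 CPM in knockout and 22.8 to 28.7 CPM in vehicle libraries, without overlap. The centred mean of the 3 tested did not overlap either, at 0.38 to 0.56 against -0.70 to -0.14. The groups overlapped for each of these 3 genes alone.

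Of the 13 other antagonists looked for, 3 were tested. Igfbp4, a growth factor binding protein that can also block Wnt co-receptors, averaged 63.5 ± 23.6 CPM in knockout and 44.3 ± 3.25 CPM in vehicle libraries (SD, n = 3 each), with knockout replicate 2 the highest at 89.8 CPM. Apcdd1, a membrane inhibitor that is itself a Wnt target, had a log2 fold change of 0.80 (SE 0.40), and Trabd2b, a protease that inactivates Wnt proteins, -0.46 (SE 0.30). The groups overlapped for all 3 genes.

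**Figure D4:**
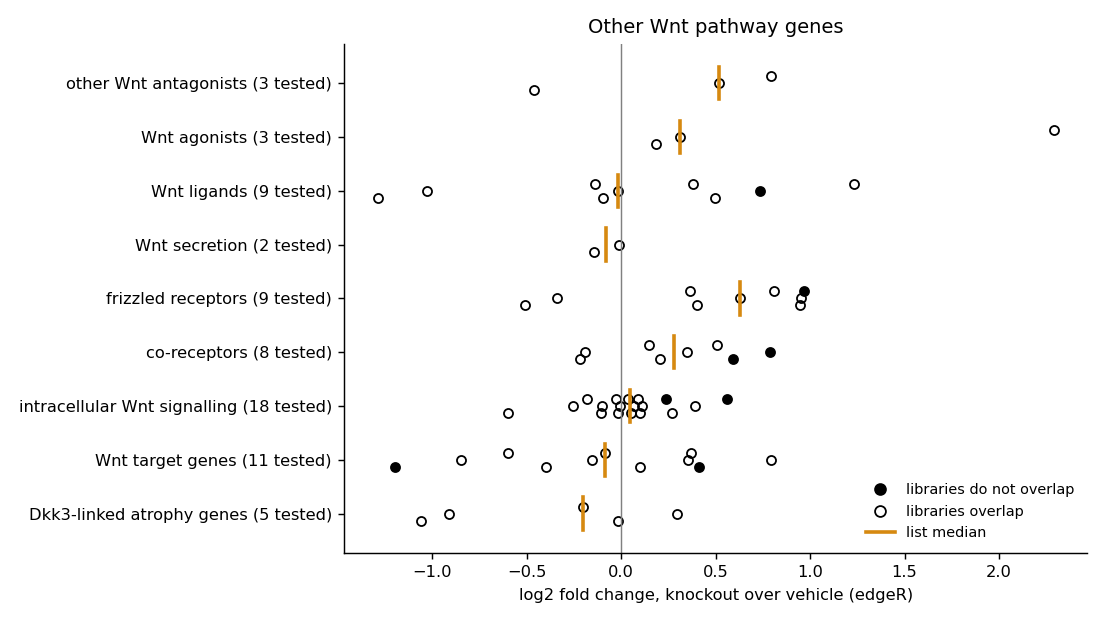
Log2 fold change of knockout over vehicle (horizontal axis) for the tested genes of each Wnt pathway list; each circle is a gene, filled where no knockout library overlaps a vehicle library, and orange lines are list medians. A gene in several lists is drawn in each; the list medians run from -0.20 for the Dkk3-linked atrophy genes to 0.63 for the frizzled receptors.

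Among intracellular components, Ctnnb1 averaged 218 ± 13.2 CPM in knockout and 220 ± 7.93 CPM in vehicle libraries (SD, n = 3 each), with an estimated log2 fold change of -0.0149 (SE 0.17). Of 18 components tested, 10 had estimates above 0 and the median was 0.0443. The 3 of smallest p were Bcl9, a beta-catenin coactivator, at 0.56 (SE 0.32), Dvl3, a dishevelled adaptor, at 0.39 (SE 0.25) and the casein kinase gene Csnk1e at -0.26 (SE 0.20).

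Estimates for genes used as readouts of canonical signalling lay on both sides of 0. Axin2, the most widely used target gene, was at 6.66, 6.02 and 7.45 CPM in knockout libraries and 5.51, 5.78 and 3.86 CPM in vehicle libraries. Its groups did not overlap, with a log2 fold change of 0.41 (SE 0.24; edgeR adjusted p = 0.732). Myc, which many signals besides Wnt induce, was at 12.0, 7.23 and 11.6 CPM in knockout libraries and 14.4, 28.8 and 27.2 CPM in vehicle libraries. The log2 fold change of Myc was -1.20 (SE 0.29; edgeR adjusted p = 0.526; DESeq2 adjusted p = 0.0258), and it was -0.44 with the slow fibre mean as a covariate. Of 11 targets tested 5 had estimates above 0, with a median of -0.0850.

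The atrophy ligases that have been linked to Dkk3 in mouse muscle had lower estimates in knockout, and their libraries overlapped. Fbxo32 was at 182, 149 and 225 CPM in knockout libraries and 207, 482 and 357 CPM in vehicle libraries. Its log2 fold change was -0.91 (SE 0.30; edgeR adjusted p = 0.628). Trim63 was at 452, 303 and 707 CPM in knockout libraries and 599, 1467 and 978 CPM in vehicle libraries, with an estimated log2 fold change of -1.06 (SE 0.39; edgeR adjusted p = 0.64). For both ligases vehicle replicate 1 lay within the range of the knockout libraries. With the slow fibre mean as a covariate, chosen after seeing the data, Fbxo32 was at -0.21 (SE 0.31) and Trim63 at -0.24 (SE 0.39). That covariate differs between the groups itself, and whether fibre content accounts for the ligase estimates was not tested. Foxo3 averaged 43.1 ± 11.4 CPM in knockout and 35.2 ± 6.16 CPM in vehicle libraries (SD, n = 3 each), with an estimated log2 fold change of 0.29 (SE 0.22).

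**Figure D5:**
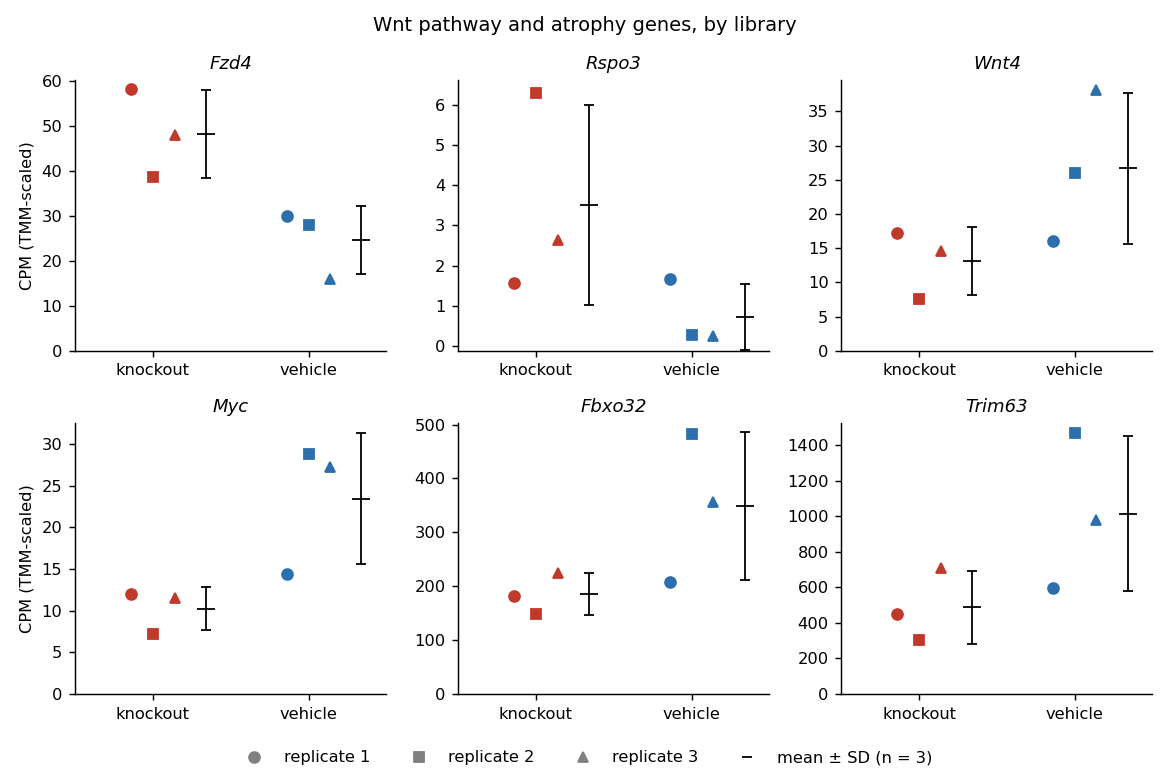
CPM of 6 Wnt pathway and atrophy genes (vertical axes, linear) in each knockout (red) and vehicle (blue) library, with the mean ± SD (n = 3) in black. The groups are apart for Fzd4 (38.7 to 58.2 CPM in knockout, 16.0 to 30.0 CPM in vehicle) and Myc (7.23 to 12.0 CPM in knockout, 14.4 to 28.8 CPM in vehicle). For Rspo3, Wnt4, Fbxo32 and Trim63 at least 1 vehicle library lies within the knockout range.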

How the data were processed

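TruSeq Stranded mRNA libraries (per the labels' protocols) were made from gastrocnemius of 3 knockout and 3 vehicle mice. The authors deposited a raw read count and an FPKM value per gene and library. Per the submitters' processing notes, STAR 2.6.1c, featureCounts from Subread 1.5.1 and mm10 were used; annotation release and strand setting: not given in the sources used here.

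Counts were tested in edgeR 4.0.16 (R 4.3.3): filterByExpr (minimum count 10, minimum total 15), TMM, robust quasi-likelihood test, two-sided, Benjamini-Hochberg over all 15583 genes kept, threshold 0.05. Standard errors came from the F statistic. A count of 3, taken as the floor, was 0.0783 to 0.0929 CPM and covers counting error only. Centred list means used log2(CPM + 0.1). The procedure was tested on simulated counts. Alternatives were DESeq2 1.42.0, limma 3.58.1, other scalings and filters, and each library left out. Members and lists were chosen with earlier results of these data known. Named were all members, the 6 genes nearest to Dkk3, up to 4 called or 3 of smallest p per pathway list, and Foxo3, Fbxo32, Trim63, Ctnnb1 and Axin2; Usp47, Mical2, 2310014F06Rik, Fzd7, Fzd8, Gm26771 and untested dickkopf genes were added after their values were seen. Replicate numbers only name libraries.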

Additional observations from a re-analysis of the deposited data

How the results depend on the processing

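With 3 mice a group, small differences are beyond reach. The log2 fold change of Dkk3 stayed negative in all 20 alternatives, from -2.83 to -1.82. The value -1.82 came from limma on log2(FPKM + 1), a scale that compresses low genes by construction, and leaving out each library gave -2.83 to -2.12. Dkk3 and Frzb libraries did not overlap between groups, so leaving out a library was not a test of either sign. Frzb stayed positive (0.67 to 1.30), as did Dkk2 (0.17 to 1.83) and Sfrp4 (0.28 to 0.81), and Sfrp5 stayed negative (-0.92 to -0.0655). With each of the 3 covariates the Dkk2 estimate was at most 0.36 and below its SE. The Sfrp5 estimate was -0.0655 (SE 0.40) without knockout replicate 3. Sfrp1, Sfrp2 and Wif1 changed sign in some. The count of genes called was 0 in edgeR (1159 at an unadjusted p below 0.05), 4 with DESeq2 size factors and with limma-voom quality weights, 29 without a low-count filter, 109 with DESeq2, and 0 to 24 with a library left out (24 without knockout replicate 1, 6 without knockout replicate 2); of the other Wnt pathway genes 1 was called, by DESeq2, and 0 with any library left out. The cause was not tested. Estimates of some pathway genes, near 0 or larger, turned sign as follows. Ctnnb1 was at 0.0804 with library totals, 0.00975 with voom weights, 0.0764 and 0.0749 on FPKM with 0.1 and 1 added, 0.0304 with the slow fibre covariate and -0.0564 to 0.0313 with a library left out (0.0313 without knockout replicate 2, 0.00213 without vehicle replicate 2). Porcn was at 0.0840, 0.13, 0.0864 and 0.0541 under the first 4 of these, 0.31, 0.0844 and 0.0981 with the slow fibre, fibro-adipogenic and macrophage covariates, and -0.14 to 0.13 with a library left out. Lgr6 was at -0.16 to 0.65 with a library left out. With the slow fibre covariate Csnk1e was at 0.0875, Fzd9 at -0.26 and Kremen1 at -0.17. The macrophage covariate put Fzd1 at -0.0909 and Wls at 0.0106. In the main fit Fzd9, Fzd1 and Kremen1 were not near 0, at 0.95, 0.95 and 0.51.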
